A study of Homo sapiens with 2 samples.

Results

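NRF2 and antioxidant genes were examined as a set of 35 genes, chosen by name for their roles in the NRF2 stress response, glutathione and thioredoxin metabolism, NADPH supply and detoxification. All 35 were listed in both deposited gene tables, out of 19316 genes listed in at least 1 of them. All 35 were also measured, meaning an FPKM (read fragments scaled to transcript length and library size) of at least 1 in at least 1 library, as were 14377 genes in all. The cells were SNU449, an established line from a human hepatocellular carcinoma. The FZD2 shRNA library was made from cells transduced with lentivirus carrying a short hairpin RNA against FZD2, a frizzled receptor for Wnt ligands. The control shRNA library was made from cells given lentivirus with a negative control hairpin. Both were harvested after 7 days, so both carry lentiviral integration and hairpin expression. Each group is 1 library, so no value has a replicate error, no difference was tested, and a difference between the libraries cannot be told apart from one between cultures, hairpins or library preparations.

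NRF2, encoded by NFE2L2, is a transcription factor held at low levels by KEAP1, an adaptor that presents it to a CUL3 ubiquitin ligase. Oxidants and electrophiles modify KEAP1, NRF2 then accumulates, pairs with a small MAF protein such as MAFG and binds antioxidant response elements (AREs) near its target genes. Those targets make and recycle glutathione and thioredoxin, supply NADPH as the reducing power for both, and modify or export reactive compounds. In liver cancer the pathway is known for being switched on by mutations in NFE2L2 or KEAP1, and the aldo-keto reductase AKR1B10 is a known marker of hepatocellular carcinoma.

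Promoter sequence was examined for the ARE core, since that is the element through which NRF2 acts. RefSeq promoter windows on build GRCh38.p14, running from 250 bases before to 50 bases after a transcript start, were matched for 28 of the 35 genes (40 windows, as some genes have several starts). The core TGACNNNGC, searched on both strands, occurred in at least 1 window of 8 of the 28 genes (28.6%). The share among all 27305 genes with a window was 16.1%. The 8 genes were KEAP1, GCLM, TXNRD1, PGD, ME1, GSTP1, GSTO1 and EPHX1. By window, 9 of 40 held it (22.5%), against 13.3% of all 35116 windows. The AP-1 element TGANTCA reads the same on both strands and can overlap the ARE core. It occurred in 3 of the 28 genes, ME1, GSTP1 and OSGIN1, against 9.37% of all 27305 genes with a window. In ME1 and GSTP1 it lay inside the ARE core. Excerpts of 5 windows are shown for the genes whose values are compared later, in the direction of transcription, with the matched letters in capitals. They lie at chr6:83431155-83431213 (ME1, minus strand), chr11:67583721-67583779 (GSTP1, plus), chr19:10502769-10502850 (KEAP1, minus), chr1:93909431-93909489 (GCLM, minus) and chr16:83953118-83953174 (OSGIN1, plus, AP-1 element alone).
ME1: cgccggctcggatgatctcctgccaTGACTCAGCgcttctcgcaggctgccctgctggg
GSTP1: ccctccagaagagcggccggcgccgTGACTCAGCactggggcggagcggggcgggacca
KEAP1: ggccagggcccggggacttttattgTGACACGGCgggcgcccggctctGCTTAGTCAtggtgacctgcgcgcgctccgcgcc
GCLM: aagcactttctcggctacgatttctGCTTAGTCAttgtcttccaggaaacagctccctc
OSGIN1: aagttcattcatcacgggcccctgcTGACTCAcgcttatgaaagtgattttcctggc
ME1 and GSTP1 hold the same 9 letters, and KEAP1 and GCLM share another 9 on the opposite strand, 31 and 34 bases before their starts. A match is a description of these letters and not a binding site.

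The FZD2 shRNA library held 8234592 expected counts and the control library 8436870. FZD2 itself was at 15.76 FPKM with FZD2 shRNA and 59.45 FPKM with control shRNA, a log2 ratio of -1.85, the direction the labels give. Genes were separated by whether their expected count was whole in both libraries, to a tolerance of 0.001. A gene with a count that is not whole is said here to have fractional counts, FZD2 among them. Programs that divide a read among genes give such fractions, but the division itself was not seen here. The fractions did not track shared sequence closely. GSR and EPHX1 had fractional counts although 0% of the 50-base words of their GENCODE transcripts occurred in another gene, while SRXN1 (84.7%) and GPX1 (21.5%) had whole counts. Of 12 hepatocyte markers, with summed FPKM of 107.77 with FZD2 shRNA and 93.41 with control shRNA, 1 was measured. FGB, a fibrinogen chain, was at 105.3 FPKM with FZD2 shRNA and 91.67 FPKM with control shRNA, with fractional counts. ALB was at 0.05 and 0 FPKM, and APOA2, APOB and TTR were listed in neither table, so defining hepatocyte transcripts were at or near 0. Of 8 prostate markers, 4 were measured, and KLK2, KLK3 and TMPRSS2 were listed in neither table; their summed FPKM was 15.34 with FZD2 shRNA and 12.55 with control shRNA. That list matters because the growth protocol names prostate cells while the cell type label names liver. Summed FPKM in the FZD2 shRNA and control libraries was 345.93 and 439.64 over 8 fibroblast and stellate markers, 94.23 and 27.74 over 6 leukocyte markers, and 2.59 and 0.56 over 5 endothelial markers. CD3E and VWF were listed in neither table. LYZ, with fractional counts, made up most of the leukocyte sum, at 71.47 and 12.31 FPKM. The part of other cells in the results was not tested. In bulk RNA, fewer expressing cells and less RNA per cell cannot be told apart.

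Most of the 35 genes differed little between the 2 libraries. Log2 ratios were computed as FZD2 shRNA over control on FPKM + 1, and a ratio of at least 1 in size, 2-fold, is called higher or lower. By that rule 2 genes were higher, OSGIN1 and AKR1B10, and 2 were lower, PRDX3 and ME1, while 31 lay between. That is 5.71% in each direction, against 15.2% of all measured genes higher and 7.41% lower. The count of higher genes was thus below the share among all genes, and the count of lower genes near it. In 23 of the 35 (65.7%) the log2 ratio was within 0.5 of 0, against 45.4% of all measured genes. The median was -0.08, beside -0.0042 for all measured genes, with 17 ratios above 0 and 18 below. Just past 2-fold were AKR1B10 (1.06) and ME1 (-1.03), and just short of it AKR1C1 (0.97) and CAT (-0.94).

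**Figure D1:**
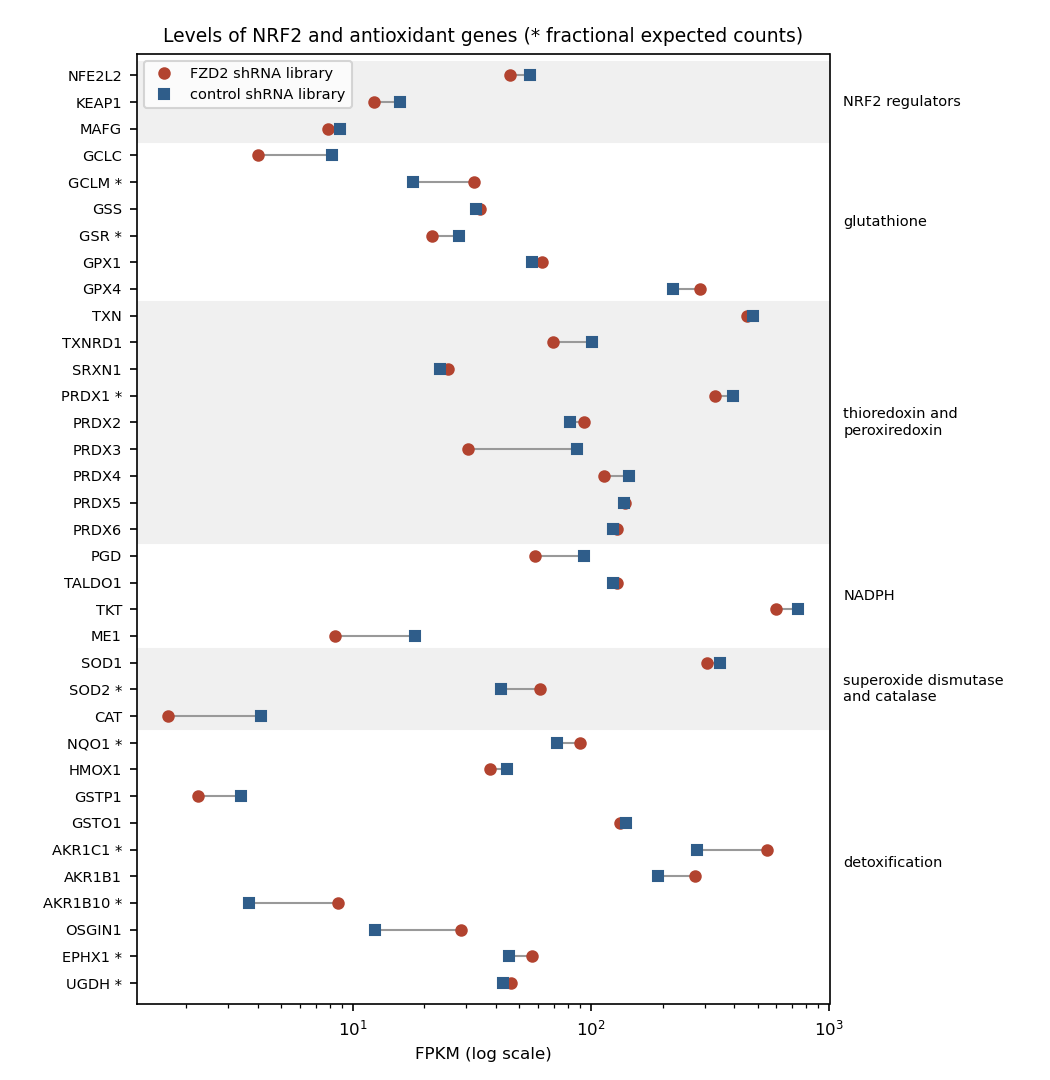
Levels of the 35 genes in FPKM on a log axis, by role, with circles for the FZD2 shRNA library, squares for the control library and a line joining the 2 values of a gene. TKT, TXN, PRDX1, SOD1 and AKR1C1 sit at the right, CAT and GSTP1 at the left, and the joining lines are longest for PRDX3, CAT, AKR1B10, OSGIN1 and ME1.

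The set was abundant. In both libraries 31 of the 35 genes lay above the median level of measured genes, and 12 were at 100 FPKM or more. Transketolase (TKT) led in both, at 595.72 FPKM with FZD2 shRNA and 738.75 FPKM with control shRNA. AKR1C1 was next in the FZD2 shRNA library at 548.79 FPKM, but came after TXN, PRDX1 and SOD1 in the control library, at 279.35 FPKM. Thioredoxin (TXN) was at 451.32 and 477.71 FPKM. At the other end, catalase (CAT) was at 1.68 and 4.14 FPKM, and GSTP1, the pi-class glutathione transferase, at 2.25 and 3.41 FPKM. Those last 2 rest on few reads, with 32 and 81 expected counts for CAT and 18 and 28 for GSTP1.

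Counting error alone was small for most of the set. An exact 95% interval of the count ratio, which takes each read as independent and covers counting error only, lay above 0 for 10 genes, below 0 for 15 and spanned 0 for 10. Such intervals do not cover the spread between cultures or libraries, and PCR copies are not independent molecules. They separate the 2 libraries, not the 2 conditions. The share of all measured genes with intervals above or below 0 was not computed, so the 10 and 15 are no result about the set.

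**Figure D2:**
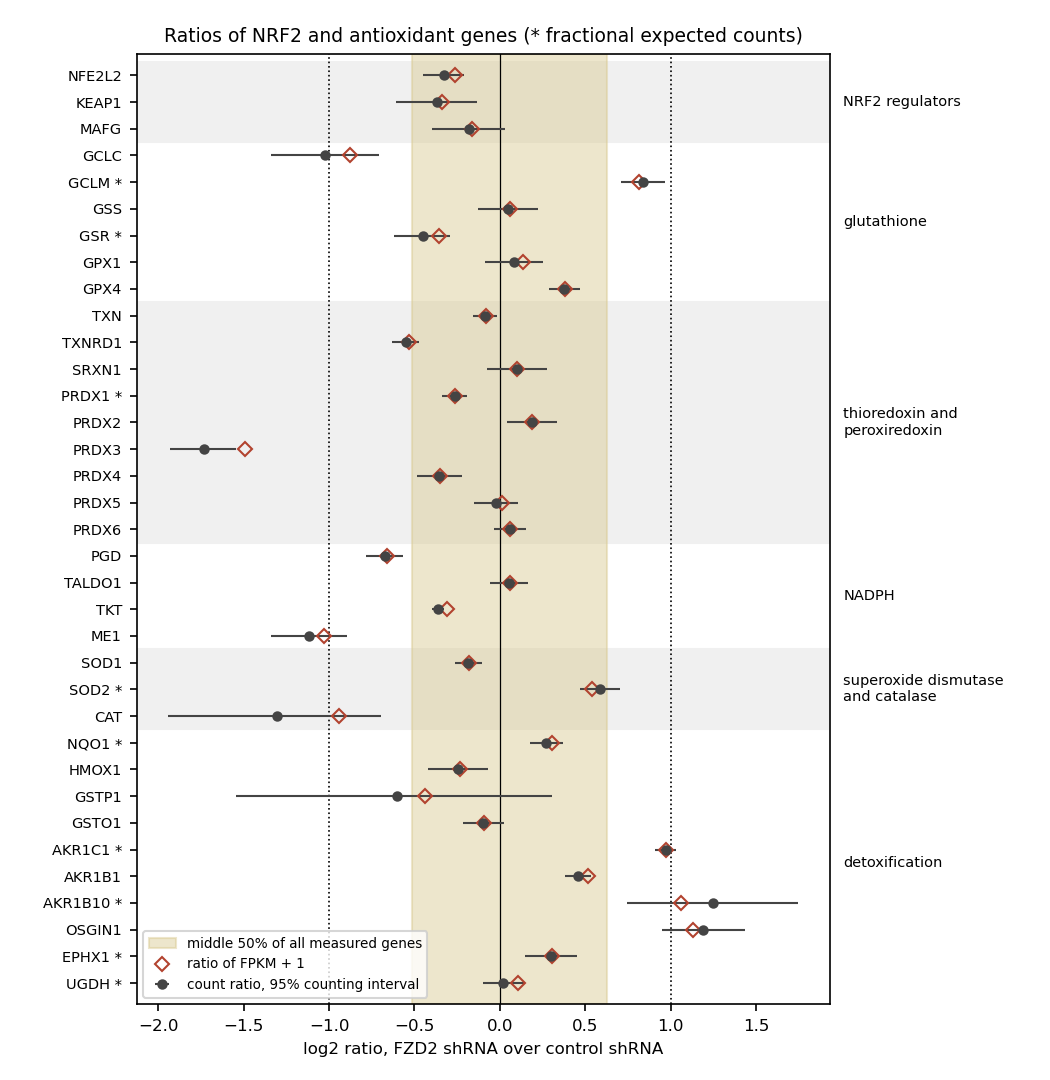
Log2 ratios of the 35 genes, FZD2 shRNA over control, with filled circles for count ratios and their 95% counting intervals, open diamonds for ratios of FPKM + 1, dotted lines at 2-fold and a band for the middle 50% of all measured genes (-0.51 to 0.63). PRDX3 at -1.50 stands lowest and OSGIN1 at 1.13 highest, and AKR1C1 at 0.97 touches the upper dotted line.

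The regulators of the pathway all had log2 ratios below 0, under each setting tried, and none reached 2-fold. NFE2L2, the gene of NRF2, was at 45.87 FPKM with FZD2 shRNA and 55.3 FPKM with control shRNA (log2 ratio -0.26). KEAP1, its inhibitor, was at 12.31 and 15.86 FPKM (-0.34, or -0.71 with the GC trend of whole-count genes taken out), and MAFG, its small MAF partner, at 7.85 and 8.89 FPKM (-0.16). The level of KEAP1 relative to NFE2L2 was 0.268 with FZD2 shRNA and 0.287 with control shRNA. All 3 had whole counts, and of all measured genes with whole counts 64.7% had ratios below 0, with a median of -0.25. The ratios of the regulators were thus near those of their kind. The interval of MAFG spanned 0. NRF2 is set mainly through its protein, which was not measured here.

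Among the glutathione genes, both subunits of glutamate-cysteine ligase, the rate-limiting enzyme of glutathione synthesis, differed in opposite directions. GCLC, the catalytic subunit, was at 4.02 FPKM with FZD2 shRNA and 8.23 FPKM with control shRNA (log2 ratio -0.88), from 126 and 262 counts. GCLM, the modifier subunit, was at 32.37 and 17.95 FPKM (0.82), from 1356.22 and 775.87 counts that are not whole. GCLM therefore stood at 8.05 times the FPKM of GCLC with FZD2 shRNA and 2.18 times with control shRNA. Their counting intervals lay far apart, at -1.34 to -0.71 for GCLC and 0.71 to 0.97 for GCLM. Neither subunit passed 2-fold on FPKM + 1. The subunits differ in kind of count, and the medians of all measured genes of each kind also had opposite signs. That median was -0.25 with whole counts, like GCLC, and 0.48 with fractional counts, like GCLM. The ratio of GCLM lay between the quartiles of its kind, -0.16 and 1.14. The ratio of GCLC lay below the lower quartile of its kind, -0.67. Whether the subunits differ beyond their kinds was not tested.

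The remaining glutathione genes lay within 0.5 of 0 on the log2 scale. GSS, which completes glutathione synthesis, was at 34.23 and 32.84 FPKM in the FZD2 shRNA and control libraries, and its interval spanned 0. GSR, the reductase that regenerates glutathione, was at 21.56 and 27.92 FPKM (-0.36, fractional counts). GPX1, a glutathione peroxidase that reduces hydrogen peroxide, was at 62.52 and 56.81 FPKM (0.14), and its interval also spanned 0. GPX4, the peroxidase that reduces lipid peroxides and blocks ferroptosis, was at 287.38 and 220.44 FPKM (0.38), but at -0.09 with the GC trend of all whole-count genes taken out. The words that GPX1 has in common with another gene were chiefly those of the pseudogene GPX1P1.

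In the thioredoxin and peroxiredoxin system PRDX3 stood apart. PRDX3, the peroxiredoxin of the mitochondrial matrix, was at 30.44 FPKM with FZD2 shRNA and 87.62 FPKM with control shRNA (log2 ratio -1.50, or 2.82-fold lower). Its counts were whole, at 290 and 989, and gave a count ratio of -1.73 (-1.93 to -1.54). Of all measured genes, 1.65% had a lower ratio. The 2 ratios differ because the deposited transcript length of PRDX3 was 1169.41 bases with FZD2 shRNA and 1343.34 with control shRNA, the largest relative change in length among the 35 genes. PRDX3 stayed past 2-fold in each of the 11 settings that gave it a ratio, from -1.71 to -1.31. Those that only choose which genes are kept left it at -1.50 by construction.

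The other 5 peroxiredoxins, which reduce peroxides with electrons from thioredoxin or glutathione, ranged from -0.35 to 0.19 and none reached 2-fold. Cytosolic PRDX1 was at 329.98 and 395.72 FPKM (-0.26, fractional counts) and cytosolic PRDX2 at 93.45 and 81.86 (0.19). PRDX4, which resides in the endoplasmic reticulum, was at 112.94 and 144.12 FPKM (-0.35). PRDX5, found in mitochondria, peroxisomes and cytosol, was at 139.12 and 137.73 FPKM, and PRDX6, which uses glutathione, at 128.66 and 123.2. The intervals of PRDX5 and PRDX6 spanned 0. PRDX3 thus stood at 0.219 of the FPKM of PRDX5 with FZD2 shRNA and 0.636 with control shRNA.

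TXNRD1, the reductase that returns thioredoxin to its active form with NADPH, was at 69.25 FPKM with FZD2 shRNA and 100.75 FPKM with control shRNA (log2 ratio -0.53). TXN, its substrate, had a ratio of -0.08, and SRXN1, the sulfiredoxin that repairs over-oxidised peroxiredoxins, was at 25.1 and 23.35 FPKM (0.10). The interval of SRXN1 spanned 0. Its shared words all lay in AL121758.1, an annotated gene whose reads may enter the value of SRXN1. For the whole group of 9 genes the median was -0.08, with 0 higher and 1 lower.

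The NADPH genes had the lowest median of the 6 roles, at -0.49 over 4 genes, all with whole counts. ME1, the cytosolic malic enzyme, was at 8.47 FPKM with FZD2 shRNA and 18.32 FPKM with control shRNA (log2 ratio -1.03, count ratio -1.12, -1.34 to -0.90). ME1 only just passed 2-fold, and with a pseudocount of 5 it was at -0.79. PGD, which makes NADPH in the oxidative pentose phosphate pathway, was at 58.5 and 93.07 FPKM (-0.66), and TKT of the non-oxidative branch had a ratio of -0.31. TALDO1, transaldolase of the same branch, was at 128.79 and 123.77 FPKM (0.06), and its interval spanned 0.

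The superoxide dismutase and catalase genes did not share a direction. SOD2, the mitochondrial manganese enzyme, was at 61.38 FPKM with FZD2 shRNA and 41.88 FPKM with control shRNA (log2 ratio 0.54). SOD1, the cytosolic copper and zinc enzyme, was at 306.33 and 347.41 FPKM (-0.18). The FPKM of SOD1 was thus 4.99 times that of SOD2 with FZD2 shRNA and 8.3 times with control shRNA. CAT, the peroxisomal enzyme that breaks down hydrogen peroxide, had a ratio of -0.94. SOD2 had fractional counts, and 34.4% of its 50-base words occurred in another gene, chiefly SOD2-OT1. Reads of this shared sequence cannot be assigned to SOD2 alone.

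The detoxification genes had the highest median of the 6 roles, 0.30 over 10 genes, but that median was -0.09 over the 5 with whole counts. OSGIN1, an oxidative stress-induced growth inhibitor and NRF2 target, was at 28.41 FPKM with FZD2 shRNA and 12.41 FPKM with control shRNA (log2 ratio 1.13, or 2.19-fold higher). It had whole counts of 459 and 206 and a count ratio of 1.19 (0.95 to 1.44). Its GC content of 64.7% was the highest of the 35, and with the GC trend taken out its ratio was 0.63.

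The 3 aldo-keto reductases of the set, which reduce carbonyl compounds with NADPH, all had ratios above 0, under each setting tried. AKR1C1 had the ratio of 0.97 given above, AKR1B1, aldose reductase, was at 272.43 FPKM with FZD2 shRNA and 190.34 FPKM with control shRNA (0.52), and AKR1B10 was at 8.71 and 3.66 FPKM (1.06). AKR1B1 alone of these had whole counts. Of all measured genes with fractional counts, like AKR1C1 and AKR1B10, 31% had ratios below 0 and the median was 0.48. AKR1C1 is close in sequence to AKR1C2 and AKR1C3, so the division of reads among them is uncertain. AKR1C2 was at 49.01 and 37.45 FPKM (0.38) and AKR1C3 at 171.49 and 192.89 FPKM (-0.17). Summed over all 3 genes, which removes the division between them, the counts were 9391.99 with FZD2 shRNA and 6329 with control shRNA, a count ratio of 0.60 (0.56 to 0.65). AKR1C1 took 66.2% of that sum with FZD2 shRNA and 51.4% with control shRNA.

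AKR1B10 rested on few reads, 115.18 with FZD2 shRNA and 49.73 with control shRNA, and its interval ran from 0.75 to 1.75. Together with AKR1B15, with which it shares 11.6% of its 50-base words, the count ratio was 1.18 (0.70 to 1.68). With a pseudocount of 5 the ratio of AKR1B10 was 0.66.

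Other classical NRF2 targets of detoxification had ratios within 0.5 of 0 on FPKM + 1. NQO1, a quinone reductase and the most used readout of NRF2 activity, was at 89.52 FPKM with FZD2 shRNA and 72.32 FPKM with control shRNA (0.30, fractional counts). HMOX1, heme oxygenase, was on the other side at 37.66 and 44.48 FPKM (-0.23, or -0.51 with the GC trend taken out). EPHX1, microsomal epoxide hydrolase, was at 56.29 and 45.41 FPKM (0.30, fractional counts), UGDH, which makes UDP-glucuronic acid for conjugation, at 45.99 and 42.71 FPKM (0.10, fractional counts), and GSTO1, the omega-class glutathione transferase, at 132.17 and 140.91 FPKM (-0.09). GSTP1 had a ratio of -0.44 and an interval from -1.54 to 0.30, so a difference was not detectable at this depth. With the GC trend taken out the ratio of GSTP1 was -0.91.

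Among genes with whole counts, all 6 that held the ARE core in a promoter window had ratios below 0, from -1.03 to -0.09, as did 8 of the 16 without it. These are 6 genes, and the difference between the 2 sets was not tested. The intervals of GSTP1 and GSTO1 spanned 0, and in TPM GSTO1 was at 0.07. Of all measured genes with whole counts, 64.7% had ratios below 0, and of those with fractional counts 31%. Among genes with fractional counts, both that held the ARE core, GCLM and EPHX1, were above 0, as were all 4 without it. Over both kinds, the 8 genes that held it ranged from -1.03 (ME1) to 0.82 (GCLM) with a median of -0.39, and 2 of them were above 0. The 20 genes without it ranged from -1.50 to 1.13 with a median of 0.08, and 12 of them were above 0. ME1 and GSTP1, with the same 9 letters, were both below 0. KEAP1 and GCLM, which share the letters on the opposite strand, had ratios of -0.34 and 0.82. Elements outside these windows were not examined.

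Whether a gene's counts were whole went with its ratio, in this set as in all genes. The 9 genes with fractional counts had a median of 0.30, beside 0.48 for all 6223 measured genes of that kind. The 26 with whole counts had a median of -0.17, beside -0.25 for 8154. Among those with fractional counts 1 was higher (11.1%) and 0 were lower, against 29.7% and 3.71% of such genes. Among those with whole counts 1 was higher (3.85%) and 2 were lower (7.69%), against 4.19% and 10.2%. With so few genes of either kind, these shares are no result about the set.

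Other genes of the pathway were split in the same way. A list of 86 further genes, covering NADPH, cystine uptake, glutaredoxins, glutathione transferases, NRF2 relatives and export pumps, held 74 measured genes, with a median of -0.12. At 2-fold, 3 of the 74 were higher and 7 lower. All 3 higher ones had fractional counts (of 31, or 9.68%, against 29.7%), and all 7 lower ones had whole counts (of 43, or 16.3%, against the 10.2% of all such genes). The highest were MSRB3, a methionine sulfoxide reductase, at 26.36 FPKM with FZD2 shRNA and 8.07 FPKM with control shRNA (1.59), GSTM3, a mu-class glutathione transferase (33.2 and 12.84, 1.31), and TIGAR, which diverts glucose to the pentose phosphate pathway (10.16 and 4.03, 1.15). Whether reads of related genes enter their values was not examined.

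On the lower side, IDH1, a cytosolic NADPH source, was at 13.69 FPKM with FZD2 shRNA and 39.04 FPKM with control shRNA (-1.45). ABCC4, an export pump, was at 8.77 and 22.67 FPKM (-1.28), and CUL3, the ligase scaffold that acts with KEAP1, at 7.06 and 18.38 FPKM (-1.27). MGST2, a microsomal glutathione transferase, was at 9.06 and 21.95 FPKM (-1.19), and NFE2L3, a relative of NRF2, at 7.85 and 18.83 FPKM (-1.16). The other two lower genes, named after their values were seen, were CHAC1, which degrades glutathione (0.77 and 3.73 FPKM, -1.42), and NNT, which makes NADPH in mitochondria (4.67 and 10.55 FPKM, -1.03).

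**Figure D3:**
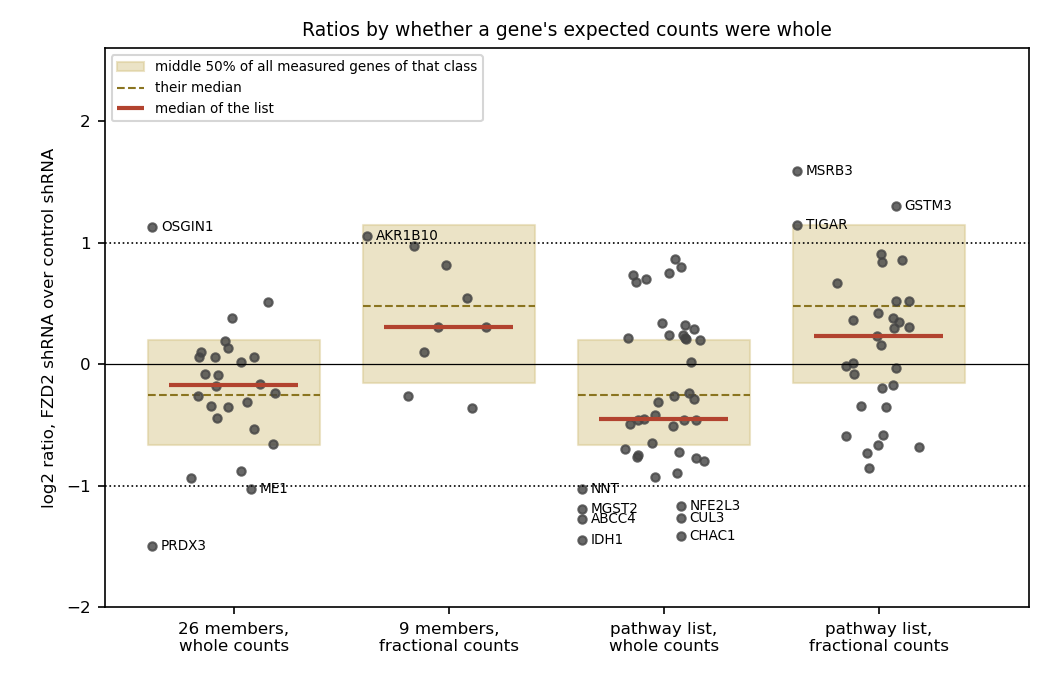
Log2 ratios of the 35 genes and of the 74 measured pathway genes, split by whether expected counts were whole or fractional, with the list's median as a solid bar and the middle 50% and median of all measured genes of that kind as a band and dashed line. Genes past 2-fold are named, and in both lists the medians of genes with fractional counts (0.30 and 0.23) sit above those of genes with whole counts (-0.17 and -0.46).

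The calls near 2-fold moved with the processing. PRDX3 kept its call in all settings that alter the ratio, while ME1, AKR1B10 and OSGIN1 each fell short of 2-fold in at least 1. In the other direction, AKR1C1 reached 2-fold in TPM and with the GC trend taken out (1.16), GCLM with the GC trend taken out (1.01), and GCLC (-1.02) and CAT (-1.25) with a pseudocount of 0.1. CAT also passed it in CPM. None of the 4 called genes changed direction, whereas 9 of the 31 others changed sign in at least 1 setting, GPX4 with its 0.38 among them.

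**Figure D4:**
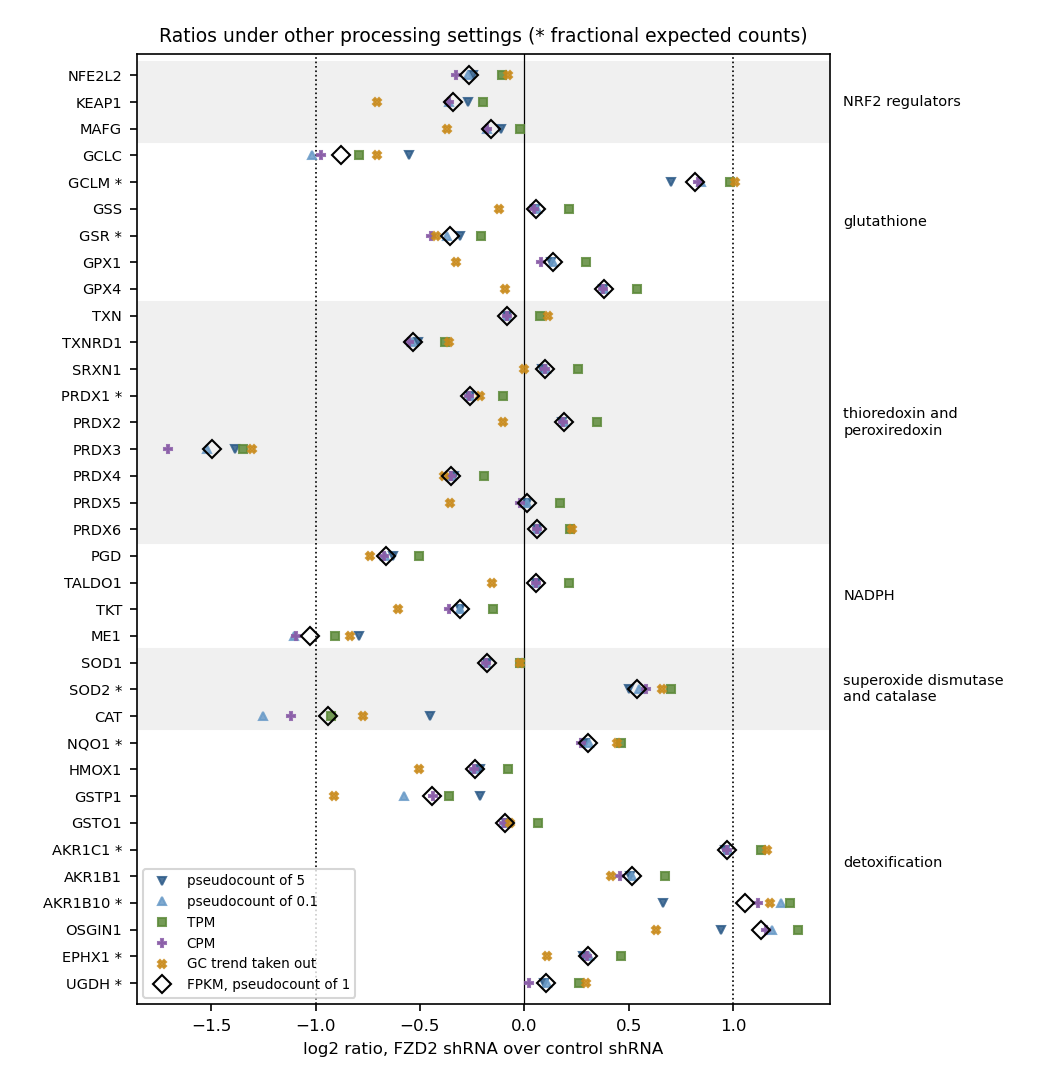
Log2 ratios of the 35 genes under FPKM with a pseudocount of 1 (open diamonds) and 5 other settings (symbols in the legend), with dotted lines at 2-fold. PRDX3 stays left of the lower line in each setting shown, whereas ME1, OSGIN1 and AKR1B10 cross to the inner side in at least 1.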

How the data were processed

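Poly(A)-selected RNA of 2 libraries was sequenced on a BGISEQ-500, per the labels' protocols and design text. Per the submitters' processing notes, HISAT and Bowtie2 were used with build hg19; their roles, the counting program and the strand setting are not stated in the labels or files. Per the file headers, the authors deposited an expected count (an estimated, unnormalized read number that need not be whole), an FPKM and a length per gene. Genes unlisted in 1 library were set to 0. Entrez identifiers were paired with symbols through the RefSeq gene table, and 53 measured genes had none.

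The 35 genes, their roles and the pathway list were chosen with earlier results of these data known. Ratios were log2((FPKM + 1)/(FPKM + 1)), for genes with at least 1 FPKM in 1 library. With 1 library per group no test was possible. Intervals are exact conditional binomial intervals (95%) on rounded expected counts, scaled to library totals; 3 counts are 3.64e-05% (FZD2 shRNA) and 3.56e-05% (control) of them. Named were all 35 genes, FZD2, and the 8 pathway genes of largest ratio in size at 5 FPKM or more in the higher library. AKR1C2, AKR1C3, AKR1B15, CHAC1 and NNT were added after their values were seen. So were TXN2, TXNRD2, IDH2, GLRX2, GLRX5, FTH1, FTL, SLC7A11 and SLC3A2. GC content came from GENCODE release 29 transcripts matched by RefSeq accession (96.1% of measured genes), and a lowess curve (fraction 0.3) through genes with whole counts was subtracted relative to its value at their median GC. For words of 50 bases, 1 transcript per gene, nearest in length to the deposited length, was compared with all other genes' transcripts. The alternatives were 13: pseudocounts, filters, TPM, the median set to 0, TMM, median-of-ratios and CPM scaling, size limits, genes with whole counts, and GC. Tools were Python 3.11.15 with statsmodels 0.14.6, SciPy 1.17.1, pandas 2.3.3, matplotlib 3.10.9 and NumPy 2.4.6, and edgeR 4.0.16 (TMM factors only) in R 4.3.3. Some genes of the lists are not reported here by name.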

Additional observations from a re-analysis of the deposited data

How the results depend on the processing

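With 1 library per group, no library could be left out and no paired analysis was possible because each group holds 1 sample. Under the alternatives, the 2 genes at least 2-fold higher became 0 with a pseudocount of 5, 3 in TPM, 3 with the GC trend taken out, 4 at 1.5-fold, 0 at 4-fold and 1 among genes with whole counts. The 2 lower genes became 4 with a pseudocount of 0.1, 3 in CPM, 1 with a pseudocount of 5, 1 in TPM, 5 at 1.5-fold, 0 at 4-fold and 1 with the GC trend taken out. TPM moves the median of all measured genes to 0.14, and with it the medians of the 35 genes (0.0771), thioredoxin and peroxiredoxin (0.0771), NADPH (-0.33), superoxide dismutase and catalase (-0.0224) and detoxification genes (0.46). With the GC trend taken out, the medians were -0.22 for glutathione, -0.21 for thioredoxin and peroxiredoxin, -0.67 for NADPH and -0.0223 for superoxide dismutase and catalase genes. Among genes with whole counts, they were -0.56 for superoxide dismutase and catalase and -0.0917 for detoxification. At 5 FPKM or more, which leaves out CAT, the median of superoxide dismutase and catalase genes was 0.18. The regulators' median lay between -0.37 and -0.11 in each setting. The alternatives gave 374 values for single genes, including unchanged ones from settings that only choose which genes are kept. Of these, 328 differed from the main ratio by no more than the distance from the middle to an end of the gene's counting interval. The other 46 differed by more, and 0 called genes reversed. The causes were not tested. Depth limits CAT and GSTP1 most.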

Other observations

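Redox genes of the mitochondria, grouped after their values were seen, did not share a direction. Of 11 such genes, 2 were at least 2-fold lower in the FZD2 shRNA library (PRDX3 and NNT), 0 were higher and 9 lay between, beside 7.41% lower and 15.2% higher of all measured genes, with a median log2 ratio of 0.02. Mitochondrial thioredoxin, TXN2, was at 75.97 FPKM with FZD2 shRNA and 65.72 FPKM with control shRNA (0.21), and its reductase TXNRD2 at 10.41 and 8.24 FPKM (0.30, fractional counts). PRDX3 takes its electrons from these proteins, and its own ratio was -1.50. IDH2, which makes NADPH in the matrix, was at 15.88 and 22.23 FPKM (-0.46), and the glutaredoxins GLRX2 and GLRX5 had ratios of 0.02 and -0.31.

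Iron storage genes, which are also NRF2 targets, were the most abundant of the pathway list. FTH1, the ferritin heavy chain, was at 4480.4 FPKM with FZD2 shRNA and 3823.32 FPKM with control shRNA (0.23, fractional counts), and FTL, the light chain, at 3022.99 and 2411.11 FPKM (0.33, whole counts). SLC7A11, the cystine importer that feeds glutathione synthesis, was at 4.19 and 2.62 FPKM (0.52, fractional counts). SLC3A2, listed beside it, went the other way, at 57.02 FPKM with FZD2 shRNA and 86.43 FPKM with control shRNA (-0.59, fractional counts). These genes were also named after their values were seen, and the median over all 74 measured pathway genes was -0.12.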
